A study of Mus musculus with 5 samples.

Results

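Interferon-induced genes and interferon-inducible GTPases were examined in thymic natural killer T (NKT) cells of wild-type and interleukin-15-deficient mice. The set holds 35 member genes named by symbol, of 20022 genes with a named probe on the array. It comprises 23 genes mainly known as induced by type I interferon, 9 GTPases of the GBP and IRG families that are strongly induced by interferon-gamma, and 3 genes that supply peptides to MHC class I. A probe was matched to 33 members. Mx1 and Mx2, which the RefSeq table used here lists as transcribed pseudogenes, were lost in this matching. The array holds probes for both, but under transcript names that this table lacks, and neither gene was analysed here. The probe of each of the 33 members was well above background on all 5 arrays, so all 33 passed the filter on dim probes.

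The 5 single-colour arrays hold 3 samples of wild-type C57BL/6 mice and 2 of IL15-/- mice on the same genetic background (IL15ko). NKT cells are a T-cell lineage whose receptor binds lipid antigens on CD1d, and IL-15 is a cytokine that supports NK cells, memory T cells and NKT cells. Each sample was sorted as CD3e-positive, CD1d-tetramer-positive cells from 10 pooled thymi after T-cell enrichment, and the labels name no treatment. Ages are not given in the labels, nor is it stated whether replicates came from separate pools of mice, so the p-values rest on a spread among samples that could be technical alone. The genotype is that of the mouse, so the NKT cells and the tissue around them lacked Il15 alike.

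Interferons act in families with shared signalling. Type I interferons bind the receptor chains IFNAR1 and IFNAR2 and, through JAK1 and TYK2, activate a transcription factor complex containing IRF9 that binds the interferon-stimulated response element (ISRE) of antiviral genes. Interferon-gamma, a main product of activated NKT cells, binds IFNGR1 and IFNGR2 and, through JAK1 and JAK2, leads to the binding of GAS elements and the induction of IRF1, GBP and IRG GTPases and genes of antigen presentation.

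Between 33.9% and 49.6% of the probes were well above background, least on the array of IL15ko 2. Wild-type 1 and 2 were closer to each other (robust SD of their log2 difference 0.170) than wild-type 3 was to either (0.343 and 0.376) or than the IL15ko arrays were to each other (0.381). The probe of the targeted gene, Il15, was well above background on 0 of the 5 arrays and so checks nothing about the labels. Of the markers of the sorted cells, Cd3e, Cd3d, Cd3g, Cd247 and the NKT lineage factor gene Zbtb16 were well above background on all 5 arrays. Of 6 markers of double-positive thymocytes 5 were so on no array (Rag1, Rag2, Cd8a, Cd8b1 and Ptcra), and Dntt was so on all 5. Of 5 B-cell markers 4 were so on no array, and Cd79b was so on all 5 (log2 difference IL15ko minus wild-type 0.92, limma adjusted p = 0.0881, groups not overlapping).

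Promoter sequences are shown first for 3 GTPases whose groups did not overlap and, beside them, for a pair of type I interferon-induced genes, because each holds at least 1 match to a pattern searched for here. The windows run from 250 bases before to 50 bases after a gene's start and were taken from RefSeq (build GRCm38.p6), which gave a window for 25 of the 35 members. Capitals mark each match to the ISRE core (GAAA, any 2 bases, GAAA), on either strand, or to the GAS pattern TTCNNNGAA, which reads the same on both strands. The windows are Gbp5 (chr3:142496684-142496983, plus strand), Gbp3 (chr3:142559794-142560093, plus strand), Irgm2 (chr11:58214727-58215026, plus strand), Isg15 (chr4:156200769-156201068, minus strand) and Ifit3 (chr19:34583279-34583578, plus strand), each written 5′ to 3′ along its gene.
Gbp5: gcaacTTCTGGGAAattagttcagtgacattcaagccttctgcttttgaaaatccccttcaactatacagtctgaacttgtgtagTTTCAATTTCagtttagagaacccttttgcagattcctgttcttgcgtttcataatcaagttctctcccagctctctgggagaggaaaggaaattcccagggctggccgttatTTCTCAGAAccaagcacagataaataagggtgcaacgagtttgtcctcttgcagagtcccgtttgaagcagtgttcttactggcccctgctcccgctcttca
Gbp3: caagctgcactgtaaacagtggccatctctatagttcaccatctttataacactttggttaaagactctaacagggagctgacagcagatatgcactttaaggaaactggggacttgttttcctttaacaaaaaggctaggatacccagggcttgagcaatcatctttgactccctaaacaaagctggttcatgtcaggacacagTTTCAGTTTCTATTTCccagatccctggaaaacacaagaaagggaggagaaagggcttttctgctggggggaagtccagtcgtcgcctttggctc
Irgm2: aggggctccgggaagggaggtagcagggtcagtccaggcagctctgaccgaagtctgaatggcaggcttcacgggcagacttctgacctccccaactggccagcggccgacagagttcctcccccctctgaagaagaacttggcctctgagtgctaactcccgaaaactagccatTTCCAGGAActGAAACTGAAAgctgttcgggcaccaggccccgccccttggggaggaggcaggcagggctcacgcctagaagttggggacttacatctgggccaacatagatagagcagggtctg
Isg15: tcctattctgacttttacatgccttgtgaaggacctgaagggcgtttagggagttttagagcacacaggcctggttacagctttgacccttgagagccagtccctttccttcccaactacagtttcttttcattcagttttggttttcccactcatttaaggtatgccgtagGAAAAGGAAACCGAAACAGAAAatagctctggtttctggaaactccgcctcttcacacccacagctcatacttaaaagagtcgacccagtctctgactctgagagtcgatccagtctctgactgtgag
Ifit3: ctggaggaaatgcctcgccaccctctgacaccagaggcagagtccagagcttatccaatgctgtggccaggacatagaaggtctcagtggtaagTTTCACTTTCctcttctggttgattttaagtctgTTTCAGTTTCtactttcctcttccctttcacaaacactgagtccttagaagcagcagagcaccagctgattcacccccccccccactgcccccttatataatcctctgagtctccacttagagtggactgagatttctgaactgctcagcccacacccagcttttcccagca

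The Gbp5 window held 1 ISRE core and 2 GAS patterns, and the Irgm2 window 1 of each, with the GAS pattern 75 to 67 bases and the ISRE core 64 to 55 bases before the start. The first Gbp3 window held 2 ISRE cores that overlap each other, Isg15 had 3 ISRE cores in an overlapping run, and Ifit3 had 2 that lie apart. Neither Gbp3, Isg15 nor Ifit3 had a GAS match in its window. All 6 GTPases with a window (Gbp2, Gbp3, Gbp5, Igtp, Irgm1 and Irgm2) held an ISRE core and 3 of them a GAS pattern (Gbp5, Igtp and Irgm2). Among the 16 type I members with a window, 9 held an ISRE core and 5 a GAS pattern. Of all 27025 genes with such a window, 3.99% held the ISRE core and 9.55% the GAS pattern. Matches of the 2 motifs overlapped in 1 member window, that of Bst2. Psmb8 held 1 GAS pattern, and Psmb9 and Tap1, whose windows overlap on opposite strands of chromosome 17, held neither. A match describes these letters only.

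Across the 33 measured members, the level in IL15ko NKT cells lay close to that of wild-type cells, and 1 member passed the test. Gbp5, a GTPase of the guanylate-binding protein family that promotes inflammasome assembly, fell by 0.90 on the log2 scale. None was called higher, and 32 were not called (limma, Benjamini-Hochberg adjusted p under 0.05 over 11997 genes). Over all genes tested, 7.33% were called, 3.58% lower and 3.75% higher. Groups did not overlap for 14 of the 33 members, 9 lower and 5 higher in IL15ko, where 47.2% of all genes had groups that did not overlap (22.1% lower and 25.1% higher). The median log2 difference (IL15ko minus wild-type) of the members was -0.15, against 0.01 over all genes tested. In the text below, levels are log2 signals relative to the 75th percentile of the array and can be compared between arrays for 1 gene, but not between genes.

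**Figure D1:**
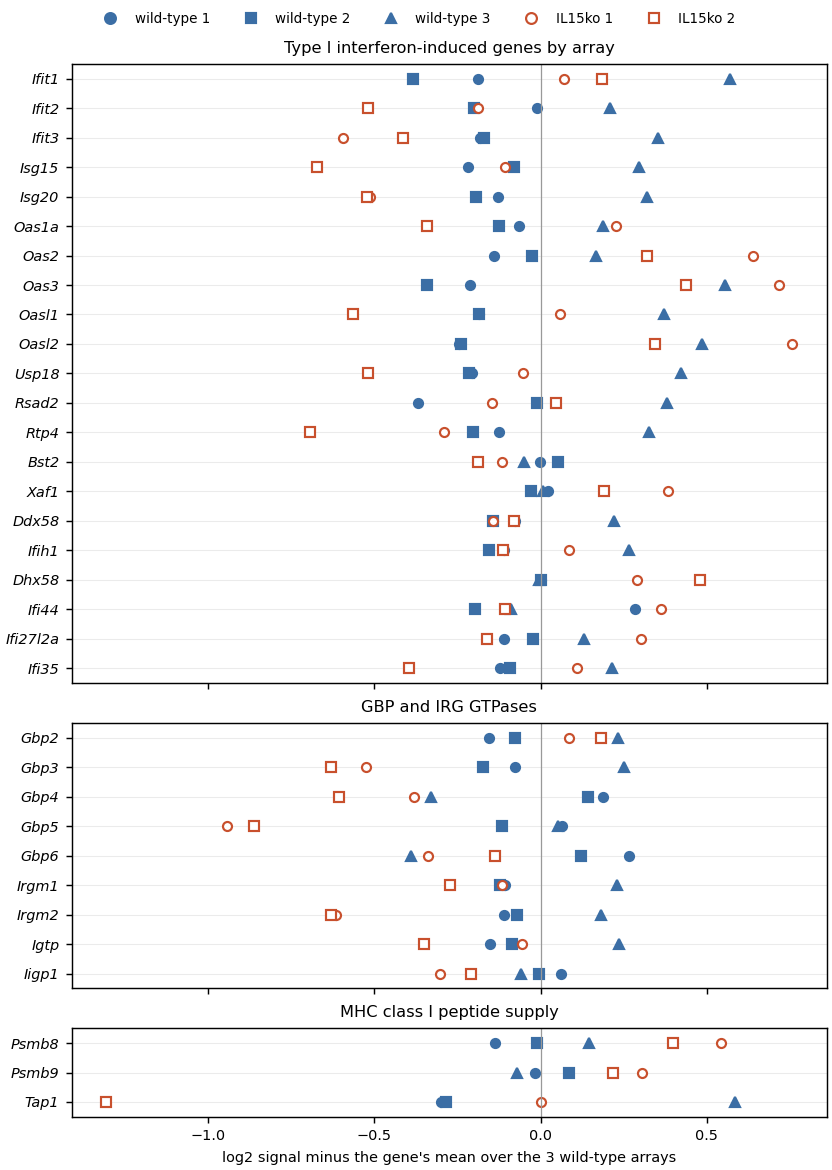
Level of each of the 33 measured members on each array (rows), as the log2 signal minus the gene's mean over the 3 wild-type arrays (horizontal axis); filled blue symbols are wild-type 1 to 3 and open orange symbols IL15ko 1 and 2. For Gbp5, Gbp3 and Irgm2 both IL15ko arrays lie to the left of all wild-type arrays, and for 17 of the 21 type I members wild-type 3 is the highest wild-type array.

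The 9 GTPases were lower on balance, and Gbp5 was the one called. Gbp5 lay at -1.40, -1.58 and -1.41 in wild-type 1 to 3 and at -2.41 and -2.33 in IL15ko 1 and 2. Both IL15ko arrays were below every wild-type array by more than the range within either group. The log2 difference of -0.90 ± 0.13 (SE) is a 1.87-fold fall (95% confidence interval 1.49 to 2.35, limma adjusted p = 0.0237). The call was lost without wild-type 1 (adjusted p = 0.130), wild-type 2 (adjusted p = 0.0855), IL15ko 1 (adjusted p = 0.0705) or IL15ko 2 (adjusted p = 0.0918), and with wild-type 1 and 2 averaged (adjusted p = 0.0930), while the log2 difference stayed between -0.96 and -0.60 over 18 alternatives.

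A further pair of GTPases had the same order of arrays without passing the test. Irgm2, an immunity-related GTPase that regulates its effector relatives, lay at -0.38, -0.34 and -0.09 in wild-type 1 to 3 and at -0.88 and -0.90 in IL15ko. The log2 difference was -0.62 ± 0.15 (adjusted p = 0.0690), with a 95% confidence interval from -0.99 to -0.25. Gbp3, another guanylate-binding protein gene, lay at -1.90, -2.00 and -1.58 in wild-type and at -2.35 and -2.46 in IL15ko. The groups did not overlap, and the log2 difference was -0.58 ± 0.17 (adjusted p = 0.110).

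The remaining GTPases differed less. For Gbp4 the log2 difference was -0.49 ± 0.21 (adjusted p = 0.203) and Iigp1, an IRG effector that coats pathogen vacuoles, one of -0.25 ± 0.12 (adjusted p = 0.249). In both, the groups did not overlap. Gbp6 at -0.24, Igtp (Irgm3) at -0.20, Irgm1 at -0.19 and Gbp2 at 0.13 had groups that overlapped, with adjusted p-values from 0.485 to 0.629. In all, 1 of 9 GTPases was called lower and 0 higher, where 3.58% of all genes were called lower. In 5 of 9 the IL15ko arrays lay below all wild-type arrays, where 22.1% of all genes did so. Of the 9 differences 8 were below 0, as were 5830 of the 11997 over all genes. At an unadjusted limma p under 0.05, 3 of 9 passed, where 27.5% of all genes did. Their median log2 difference was -0.25, against a median of 0.01 and a 25th percentile of -0.29 over all genes tested. The GBP genes had a median of -0.49 and the IRG genes one of -0.23. For the 4 IRG genes the 95% confidence intervals lay within 2-fold in both directions, whereas 3 of the 5 GBP intervals reached past 2-fold. GBP and IRG genes lie in families of similar copies, so a probe may bind more than 1 of them. The other probe of Irgm1 had a log2 difference of -0.83 against -0.19 for the brighter one, that of Iigp1 one of -0.42 and that of Gbp6 one of -0.06, and with the second brightest probe of each gene the list's median was -0.49.

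**Figure D2:**
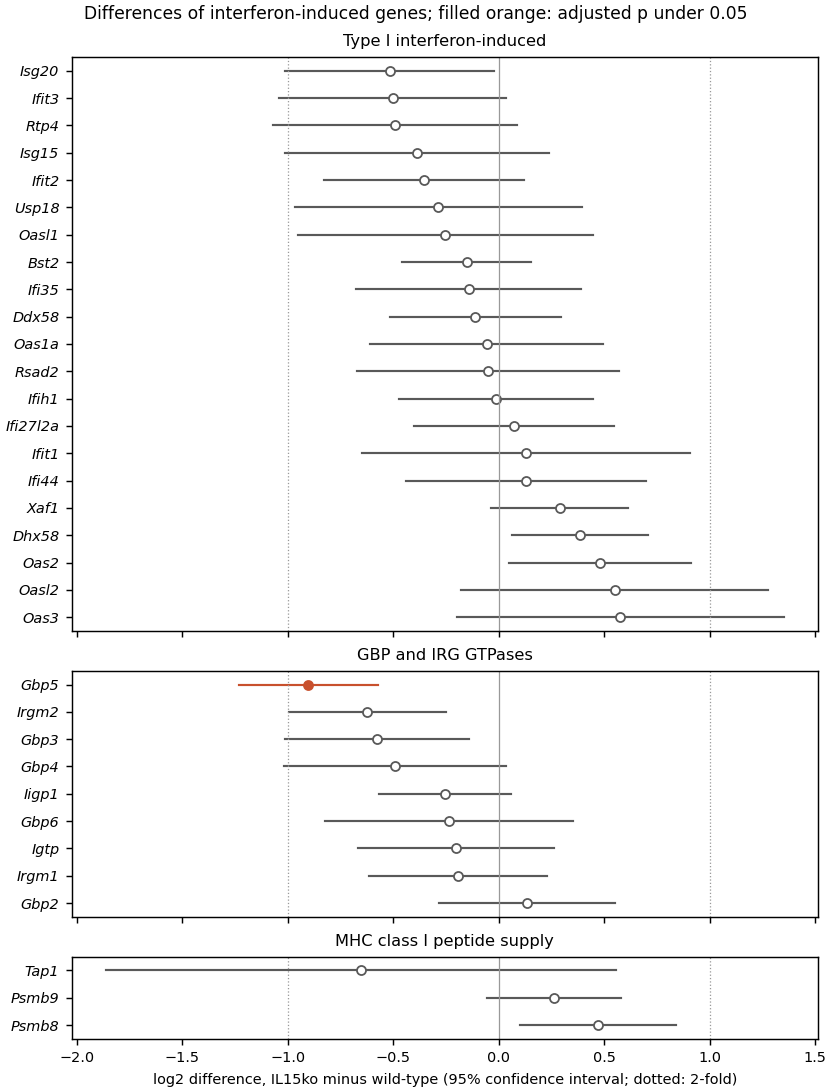
Log2 difference, IL15ko minus wild-type (horizontal axis), of each measured member (rows, ordered by the difference within each class), with limma's 95% confidence interval; the filled orange point was called and dotted lines mark a 2-fold change. Gbp5 at -0.90 is the sole filled point, and the type I members run from -0.52 for Isg20 to 0.58 for Oas3 on both sides of 0.

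The type I interferon-induced genes lay on both sides of 0, and limma called 0 of the 21. At an unadjusted p under 0.05, 3 of 21 passed (Isg20 lower, Oas2 and Dhx58 higher), where 27.5% of all genes did. In none of the 18 alternatives (17 for Ifih1) was a type I member called, and the smallest adjusted p in any of them was 0.0609. The differences ran from -0.52 to 0.58, with 13 below and 8 above 0 and a median of -0.06. For 15 of the 21 the 95% confidence interval lay within 2-fold in both directions, as it did for 63.3% of all genes tested, and over the 21 the intervals spanned -1.07 to 1.35. For the other 6 an interval reached past 2-fold.

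Among the effectors that act on viral RNA, the IFIT proteins bind RNA with foreign ends. Ifit3 lay at 0.11, 0.12 and 0.64 in wild-type 1 to 3 and at -0.31 and -0.12 in IL15ko. The groups did not overlap, but the difference of -0.50 ± 0.21 did not pass (adjusted p = 0.204). Ifit2 had a difference of -0.35 ± 0.19 and Ifit1 one of 0.13 ± 0.31, and in both the groups overlapped. Ifit3 has a near-identical neighbour, Ifit3b, with a log2 difference of -0.46, so that their signals may be mixed. Isg20, an RNA exonuclease gene, lay at 1.65, 1.59 and 2.10 in wild-type and at 1.27 and 1.26 in IL15ko, again with no overlap, and had a difference of -0.52 ± 0.20 (adjusted p = 0.169). Its other probe had a difference of -0.23.

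The oligoadenylate synthetases, which activate RNase L on sensing double-stranded RNA, included the highest differences. The log2 differences were 0.58 ± 0.31 for Oas3 (adjusted p = 0.287), 0.55 ± 0.29 for Oasl2 (adjusted p = 0.280) and, for Oas2, 0.48 ± 0.17 (adjusted p = 0.152). Of these, Oas2 was the one whose groups did not overlap. Oas1a had a difference of -0.06 ± 0.22 and Oasl1 one of -0.25 ± 0.28. The other probe of Oas1a had the opposite sign, 0.27. Oas3 was chosen after its values were seen to show the spread within groups. It lay at -1.99 and -2.12 in wild-type 1 and 2, at -1.22 in wild-type 3, and at -1.06 and -1.34 in IL15ko 1 and 2. Wild-type 3 was thus level with the IL15ko arrays.

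The cytosolic RNA sensors did not pass the test either. Ddx58, which encodes RIG-I, had a log2 difference of -0.11 ± 0.16 and Ifih1, which encodes MDA5, one of -0.01 ± 0.18. Dhx58, which encodes LGP2, had one of 0.38 ± 0.13 (adjusted p = 0.134) with groups that did not overlap. The 95% confidence intervals of all 3 sensors lay within 2-fold. The ubiquitin-like modifier Isg15 had a difference of -0.39 ± 0.25 and Usp18, the protease that removes it and restrains the type I receptor, one of -0.29 ± 0.27. Rtp4 had a difference of -0.49 ± 0.23 (adjusted p = 0.234) and Bst2, which encodes the virus tether tetherin, one of -0.15 ± 0.12. Xaf1, a pro-apoptotic gene, had one of 0.29 ± 0.13. In these last 3 the groups did not overlap. Rsad2, which encodes viperin, Ifi44, Ifi27l2a and Ifi35 had differences of -0.05, 0.13, 0.07 and -0.14, with groups that overlapped.

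Wild-type 3 stood apart among the wild-type arrays in these genes. It was the highest of the 3 wild-type arrays in 17 of 21 type I members, 5 of 9 GTPases and 2 of 3 MHC class I members, and in 42.1% of all genes tested. Relative to the wild-type mean of each gene, the median type I member lay at -0.12 and -0.15 in wild-type 1 and 2, at 0.26 in wild-type 3, and at 0.07 and -0.16 in IL15ko 1 and 2. IL15ko 1 was thus inside the wild-type range and IL15ko 2 just below its lower end. The median GTPase lay at -0.08 and -0.08 in wild-type 1 and 2, at 0.18 in wild-type 3, and at -0.34 and -0.35 in IL15ko, below all wild-type arrays. Over all genes tested the same medians lay between -0.01 and 0.03. Without wild-type 3 the median log2 difference of the type I members was 0.04 and that of the GTPases -0.43. The part of the sample, its pooling or its array in this was not tested.

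The 3 genes of MHC class I peptide supply did not move together. Psmb8 and Psmb9 encode catalytic subunits of the immunoproteasome, and Tap1 a subunit of the transporter that carries peptides into the endoplasmic reticulum. For Psmb8 the log2 difference was 0.47 ± 0.15 (adjusted p = 0.118) and for Psmb9 0.26 ± 0.13 (adjusted p = 0.249), and in both the IL15ko arrays were above all wild-type arrays. Tap1 had one of -0.65 ± 0.48 (adjusted p = 0.419) and its IL15ko arrays differed by more than the groups did, at -1.10 and -2.41. Without IL15ko 2 its log2 difference was 1.01e-04.

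Upstream of these genes, the interferon-gamma axis differed between the groups. Ifng lay at 1.03, 0.95 and 0.98 in wild-type 1 to 3 and at -2.65 and -0.89 in IL15ko 1 and 2, and it was called lower (log2 difference -2.75 ± 0.51, adjusted p = 0.0409). Ifngr1, the ligand-binding chain of its receptor, lay at 2.50, 2.52 and 2.11 in wild-type and at -0.06 and 0.44 in IL15ko. It fell 4.55-fold (95% confidence interval 3.07 to 6.74, adjusted p = 0.0127). Ifngr2, the signalling chain of the same receptor, lay at -3.60, -3.61 and -4.15 in wild-type and at -2.21 and -1.98 in IL15ko, and rose 3.23-fold (2.20 to 4.76, adjusted p = 0.0200). Both receptor chains had groups far apart, in opposite directions.

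None of the type I receptor chains and Janus kinases was called. For Ifnar1 the log2 difference was -0.14 ± 0.21 (its other probes -0.72 and -0.42) and for Ifnar2 -0.19 ± 0.13, at adjusted p-values of 0.695 and 0.383. Among the kinases, added after their values were seen, Jak1 had a log2 difference of -0.05 and Jak2 one of 0.06. That of Tyk2 was -0.93 ± 0.37 (adjusted p = 0.186) with groups that did not overlap, larger in size than that of the called Irf1. Stat2 had a log2 difference of 0.13 ± 0.16, Irf9 one of -0.30 ± 0.13 and Irf7 one of -0.47 ± 0.38, and none of these 3 passed the test. Irf1, a transcription factor gene induced by interferon-gamma, lay at 2.82, 2.75 and 3.03 in wild-type and at 2.14 and 2.06 in IL15ko, and fell 1.70-fold (1.32 to 2.19, adjusted p = 0.0423). Il10rb, a chain shared by the receptors of IL-10 and type III interferon, fell 2.23-fold (adjusted p = 0.0276). Of the 21 receptor and signalling genes tested of 22 listed, 1 was called higher (Ifngr2) and 3 lower (Ifngr1, Il10rb and Irf1). Of all genes 3.75% were called higher and 3.58% lower. The median of the 21 was -0.20. Of 10 listed interferon genes 5 were tested and Ifng alone was called. Ifna1, Ifna2, Ifna5 and Ifna11 were well above background on 4 or 5 arrays and had log2 differences from -0.48 to 0.42. Their probes were dim, with group means from -6.44 to -4.80, and the other probe of Ifna2 was well above background on no array. The values of single Ifna genes are therefore uncertain. Ifnk was well above background on 1 array, and Ifnb1, Ifna4 and Ifne were so on no array.

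**Figure D3:**
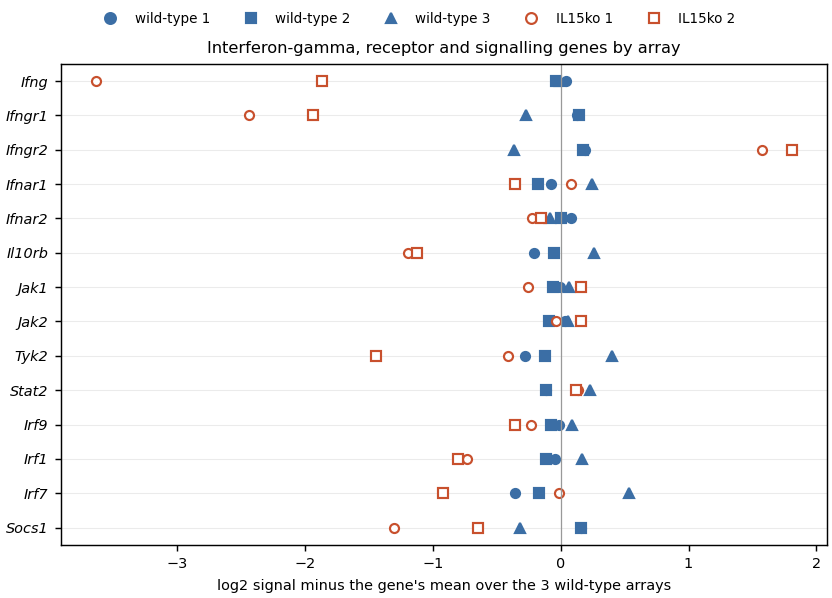
Interferon-gamma, receptor and signalling genes (rows) on each array, as the log2 signal minus the gene's mean over the 3 wild-type arrays (horizontal axis); filled blue symbols are wild-type 1 to 3 and open orange symbols IL15ko 1 and 2. Ifng and Ifngr1 lie far to the left in IL15ko and Ifngr2 far to the right, while Ifnar1, Jak1, Jak2 and Stat2 scatter around 0.

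Interferon-induced genes outside the member set were counted from lists drawn up by function. Of 10 other GTPases tested, 2 were called lower and 0 higher, where 3.58% of all genes were called lower and 3.75% higher. Their median log2 difference was -0.69. Gvin1, a very large interferon-inducible GTPase gene, lay at 2.67, 2.68 and 2.55 in wild-type and at 1.23 and 1.35 in IL15ko and fell 2.54-fold (2.03 to 3.17, adjusted p = 0.0105). Gbp9 lay at -0.90, -0.93 and -0.67 in wild-type and at -1.72 and -1.73 in IL15ko and fell 1.86-fold (1.45 to 2.38, adjusted p = 0.0286). Gvin1 and Gbp9 also belong to families of similar copies.

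Of 47 other type I interferon-induced genes tested, 4 were called lower and 0 higher, where 3.58% of all genes were called lower and 3.75% higher. Their median was -0.10. The 4 include Ifitm1 and Ifitm2, which were not well above background in IL15ko. Ifitm1, which encodes a membrane protein that restricts virus entry, was not well above background on either IL15ko array. It was at least 10.8-fold lower (measured means -2.29 in wild-type and -7.13 in IL15ko). Its neighbour Ifitm2, also not so on either IL15ko array, was at least 5.75-fold lower (measured means -3.21 and -7.53). Both genes passed the filter on dim probes through the wild-type arrays alone. Their calls therefore rest on IL15ko signals that were not well above background, and their p-values are not given here. These bounds set the mean of the bright group against, per array of the dim group, the higher of the probe's own signal and the lowest signal well above background. They hold for the background correction used here, since with normexp and an offset of 50 the log2 differences of Ifitm1 and Ifitm2 were -2.21 and -1.41, and with the 75th percentile after it -1.78 and -0.97. The IFITM genes are similar in sequence, so single members are uncertain. Ms4a4b, a T-cell membrane protein gene, fell 2.85-fold (adjusted p = 0.0103) and Ifi204 1.66-fold (adjusted p = 0.0342).

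Of 19 other MHC class I and interferon-gamma-induced genes tested, 3 were called lower and 1 higher. Of all genes 3.58% were called lower and 3.75% higher. The median of the 19 was 0.08. H2-K1, a classical class I heavy chain gene, fell 2.30-fold (adjusted p = 0.0163), H2-Q7, a non-classical one, 1.78-fold (adjusted p = 0.0403), and Nlrc5, the transactivator of class I genes, 1.60-fold (adjusted p = 0.0370). Cd74, the invariant chain of MHC class II, rose 2.09-fold (adjusted p = 0.0294). Class I genes are near-identical copies, so their values may be mixed. All 15 calls in these lists kept their direction when any 1 array was left out. Only Ifitm1 was still called without wild-type 1 (limma adjusted p-values of the 15 from 0.0233 to 0.183) or without wild-type 2 (0.0234 to 0.156). That call rests on an IL15ko signal not well above background, so no call with signal in both groups was kept in these settings. Without wild-type 3, IL15ko 1 or IL15ko 2, 10, 6 and 6 of the 15 were called, with adjusted p-values up to 0.0807, 0.100 and 0.157. With wild-type 1 and 2 averaged, Ifitm1 alone was called, and with normexp followed by the 75th percentile 0 of the 15 were (adjusted p from 0.0528 to 0.368).

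**Figure D4:**
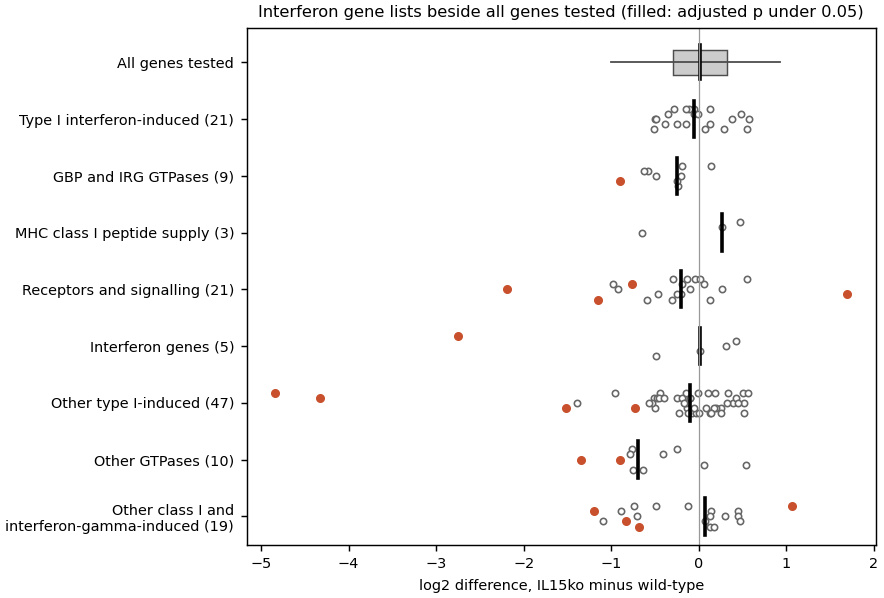
Log2 difference, IL15ko minus wild-type (horizontal axis), of each gene tested in the interferon lists (points, filled where called, with the number tested in brackets and a black bar at the median), beside all genes tested (box from the 25th to the 75th percentile, line from the 5th to the 95th, bar at the median). The leftmost pair of other type I-induced genes, Ifitm1 and Ifitm2, is plotted at its measured difference although the IL15ko signal was not well above background. The medians of the type I members (-0.06) and of the other type I-induced genes (-0.10) lie near that of all genes (0.01), and those of the 9 GTPase members (-0.25) and the 10 other GTPases (-0.69) lie below it.

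Markers of NKT subsets moved with the genotype, where 3.58% of all genes were called lower and 3.75% higher. Of 7 markers of NKT1 cells, the interferon-gamma-producing subset, 6 were called lower, and their summed linear signal, in units of the array's 75th percentile, was 40.2 to 42.1 in wild-type and 11.8 to 16.9 in IL15ko. Of 7 NKT2 markers 6 were called higher (sums of 16.2 to 17.3 and 34.8 to 34.9), and Il4 was not (limma adjusted p = 0.0867). These sums rest mainly on Icos and Zbtb16 (mean levels 4.17 and 3.15 in IL15ko). Zbtb16, also the lineage marker named above, rose 2.83-fold (adjusted p = 0.0161). Of 7 NKT17 markers 6 were called higher, while Il17a was not tested (sums of 1.27 to 1.55 and 3.93 in both). Ifng is itself 1 of the NKT1 markers. In these bulk samples, fewer cells of a subset and less RNA per cell cannot be told apart, and the part of subset composition in the values of Gbp5, Irgm2 and the other GTPases was not tested. Of the 12 listed macrophage and dendritic cell markers 11 had a probe, 7 of these were well above background on no array, among them Lyz2, Adgre1, Mertk and C1qa, and their sums were 0.441 to 1.08 in wild-type and 0.195 to 0.229 in IL15ko. Csf1r was so on all 5 arrays (log2 difference -2.29 ± 0.46, adjusted p = 0.0509, groups not overlapping). Its other probes, also so on all 5, had differences of 0.28 and -0.81. C1qb (-0.07) and H2-Ab1 (-1.15) were so on 4 arrays, with groups that overlapped. Of the 4 listed NK-cell markers, Klra8 (-2.49 ± 0.20, adjusted p = 0.00850) and Klre1 (-4.99 ± 0.42, adjusted p = 0.00881) were called lower. Eomes, well above background on 1 array, was not tested, and Ncr1 was so on no array. The sums of this list were 11.9 to 13.1 in wild-type and 1.68 to 2.47 in IL15ko, and they rest mainly on Klra8. The part of NK, B-cell or macrophage transcripts in the values of the members was not tested. Bst2 is also a marker of plasmacytoid dendritic cells. Of the 6 listed genes 5 were tested and 0 called by limma (0 also at an unadjusted p under 0.05). Klk1 was well above background on no array, and the sums were 35.8 to 54.9 in wild-type and 35.9 to 47.7 in IL15ko. These sums rest mainly on 1 probe of Siglech (mean levels 5.32 and 5.13), whose other probe was well above background on no array.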

How the data were processed

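Gene expression was measured in sorted thymic NKT cells on 5 Agilent arrays of 1 slide (3 wild-type, 2 IL15ko), which leaves no slide or scan batch to test. Per the file headers, the deposited intensities are linear spot values written by Feature Extraction 10.7.1.1 (Agilent), background-subtracted within the array and not scaled between arrays. Limma is among the tools in the submitters' processing notes. The authors' deposited value table holds linear intensities, equal to spot median minus local background plus a constant, with the software setting behind it not given in the sources used here. Control and outlier spots were left out and spots of 1 probe averaged. Log2 intensities were scaled to each array's 75th percentile over 18519 probes that all 5 arrays measured well above background. Accessions were matched to RefSeq (GRCm38.p6), naming 26425 of 55681 probes; the brightest probe stood for each gene, and the 11997 genes that 2 or more arrays measured well above background entered limma 3.58.1 in R 4.3.3 (lmFit, eBayes, no covariates, 3 residual and 2.28 prior degrees of freedom). The fit was tested on simulated data. With 3 against 2 arrays, an exact permutation test of 1 gene cannot give a two-sided p below 0.1. The files hold no mean spot signal, so the normexp alternative used the spot median. Members, lists and alternatives were chosen with earlier results of these data known. Array values are printed for members that were called, or whose groups did not overlap with a log2 difference of at least 0.5 in size. From each companion list the called genes were named, up to 4 by smallest p, with the interferon receptor chains, Ifng and set signalling factors; array values are given for some of these, and genes named beyond the rule were chosen after their values were seen. The number of arrays limits the precision. The values of some listed genes are not reported here.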

Additional observations from a re-analysis of the deposited data

How the results depend on the processing

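The fall of Gbp5 kept its direction in all 18 alternatives and was called in 10 of them; it was lost without a filter on dim probes (adjusted p = 0.148), with the replicate block (0.0761), with normexp followed by the 75th percentile (0.226) and as given in the report. The number of members called, 1 in the main setting, was 3 with normexp and an offset of 50 followed by quantile normalization (Gbp5, Irgm2 and Psmb8), 3 with a trended and robust variance prior (the same members), 2 with probes well above background on all 5 arrays (Gbp5 and Irgm2), and 0 without a filter on dim probes, with normexp followed by the 75th percentile (an alternative chosen after seeing the data), with wild-type 1 and 2 averaged and with the replicate block. With 1 array left out it was 0 to 1. Over all genes, limma called 879 in the main setting, 1444 and 1 with the normexp settings in that order, 1517 with the trended prior, 3 without the filter, 101 with the averaged arrays, 379 with the replicate block, and 9 to 783 with 1 array left out. The median of the GTPase members was -0.49 with the mean of all probes and also with the second brightest probe, -0.31 in the authors' deposited table, -0.43 with the replicate block, and -0.43 to -0.26 with 1 array left out. The type I median changed sign between settings. In the main setting it was below 0, with 8 of 21 members above 0. With the replicate block (11 above 0), without wild-type 3 (11) and without IL15ko 2 (12) it was above 0. In the other alternatives 7 to 10 members lay above 0. Leaving the filter out raised the genes tested to 20022 and their median difference from 0.01 to 0.24. The cause of the other shifts was not tested.

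Differences near 0 changed sign. Ifih1 had 0.0182 with the percentile over all probes, 0.10 with normexp and the 75th percentile, 0.0160 in the authors' deposited table and 0.12 with the replicate block. Oas1a had 0.11 with the mean of all probes, 0.27 with the second brightest and 0.0370 with the block. Rsad2 had 0.0435 with normexp and the 75th percentile and 0.14 with the block, and Ifit1 had -0.0147 with the averaged arrays. With 1 array left out, the range was -0.16 to 0.30 for Ifi27l2a, -0.40 to 0.11 for Ifi35, -0.11 to 0.36 for Ifi44, -0.11 to 0.12 for Ifih1, -0.0636 to 0.41 for Ifit1, -0.34 to 0.23 for Oas1a, -0.57 to 0.0589 for Oasl1, -0.23 to 0.14 for Rsad2 and -1.31 to 1.01e-04 for Tap1. None of these was called in any setting. The replicate numbers in the labels name samples only. Deviations of same-numbered samples correlated across genes at -0.13 for number 1 and 0.21 for number 2. The deviations of the 2 IL15ko arrays from their own mean mirror each other, so these correlations cannot decide on pairing. No pairing was assumed in the main setting. Slide as a block was not run, since all arrays share 1 slide.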
